A study of Mus musculus with 8 samples.

Results

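The miRNAs described here are 5 stress-responsive miRNAs chosen by name: mmu-miR-21a-5p, linked to oxidative stress, mmu-miR-210-3p, induced by hypoxia, and mmu-miR-34a-5p, mmu-miR-34b-5p and mmu-miR-34c-5p, induced by p53 (the mouse prefix is left out from here on). They were read from the rows with these names among 1881 mouse miRNAs on a 1-colour Agilent array, and all 5 were on the array. Medium of transwell co-cultures of primary myocytes from the hind limb muscle of newborn mice (1 to 3 days old, labelled male) was profiled, 1 array per culture and 8 in all. Every donor mouse carried a human SOD1 transgene, in the WT/WT group too: strain B6SJL(Tg-SOD1)2Gur/J overexpresses wild-type SOD1, written WT, and strain B6SJL(Tg-SOD1*G93A)1Gur/J overexpresses the G93A mutant, written G93A, a model of amyotrophic lateral sclerosis (ALS). The lines were kept by crossing hemizygous males with B6SJLF1/J females without the transgene. A group's name gives the cells of the lower chamber first and those of the insert second. There were 2 WT/WT arrays, 3 of G93A/WT and 3 of G93A/G93A. Cells were seeded at 2.5 (lower chamber) and 1.5 (insert), in units of 1e5 cells, and the insert's membrane had 0.4 µm pores. The cultures received no treatment, and medium was taken at 2 days in vitro. Samples are labelled as biological replicates, but the labels do not say how many pups went into a culture, and no step that removes non-muscle cells is described, so a group stands for a mixed limb muscle culture. Medium without cells and cultures without a transgene were not analysed here. The growth medium held 10% foetal bovine serum and the differentiation medium 2% horse serum. The labels do not say which of them was collected, and a bovine or equine miRNA of identical sequence would bind the same probe. In culture medium, fewer releasing cells and less release per cell cannot be told apart.

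MicroRNAs are short RNAs that lower the output of mRNAs matching their seed, bases 2 to 8. The 3 kinds of miRNA here answer to different stress signals. miR-21 is switched on by STAT3 and AP-1 and by reactive oxygen, limits the translation inhibitor PDCD4, and is known to rise in injured and denervated muscle. miR-210 is the best known target of the hypoxia-inducible factor HIF among miRNAs and acts on ISCU, a scaffold protein for mitochondrial iron-sulphur clusters. miR-34a and the joint miR-34b and miR-34c transcript are direct p53 targets that restrain the cell cycle, BCL2 and SIRT1. miR-34b and miR-34c are known mainly from ciliated epithelia, testis and brain.

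The mature sequences show which members can share targets and which relatives a probe has to tell apart. RefSeq (GRCm38.p6) held a mature sequence for 4 of the 5 members. They are printed 5′ to 3′ with the seed in capitals.
miR-21a-5p: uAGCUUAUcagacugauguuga
miR-210-3p: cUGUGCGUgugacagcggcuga
miR-34a-5p: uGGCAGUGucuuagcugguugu
miR-34b-5p: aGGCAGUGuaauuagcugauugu
miR-34a-5p and miR-34b-5p shared the seed GGCAGUG, and miR-21a-5p and miR-210-3p had a seed of their own among the members. Compared base by base from the 5′ end without gaps, miR-34a-5p and miR-34b-5p were identical at 11 of 22 positions. miR-34b-5p is the longer, at 23 bases against 22, so this count sets later bases out of register and understates their likeness. The seed of the miR-34 members was also that of miR-449a-5p and miR-449c-5p, which mark ciliated cells, and the seed of miR-21a-5p was also that of miR-21c.
miR-449a-5p: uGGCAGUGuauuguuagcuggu
miR-449c-5p: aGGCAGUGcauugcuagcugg
miR-21c: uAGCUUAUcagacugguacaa
miR-21b: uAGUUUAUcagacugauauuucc
miR-21b and miR-21c are the copies closest to miR-21a-5p: miR-21c matched it at 16 of 21 positions and miR-21b at 18 of 22, with the substitution C4U inside the seed (position counted from the 5′ end, the base of miR-21a-5p first). All 4 of these relatives were on the array and undetected on every array. In GRCm38.p6, miR-21a-5p lies at chr11:86584120-86584141 on the minus strand, within the span of the protein-coding gene Vmp1. miR-210-3p lies at chr7:141221407-141221428 on the minus strand and miR-34a-5p at chr4:150068473-150068494 on the plus strand, both outside the span of any other gene in the table. miR-34b-5p lies at chr9:51103610-51103632 on the minus strand, within the spans of Btg4 and Hoatz, and its hairpin is 451 bases from that of miR-34c. Whether these positions are exonic or intronic was not analysed here.

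Of the 5 members, 3 were detected on all 8 arrays (miR-21a-5p, miR-210-3p and miR-34a-5p), miR-34c-5p on 2 G93A/WT arrays and miR-34b-5p on none. Each of the 3 had its lowest signals in G93A/G93A medium (ratios to WT/WT of 0.576 to 0.748). After scaling, every G93A/G93A array lay below every other array for all 3, as for 8.18% of the 538 tested miRNAs. Without scaling, G93A/G93A and WT/WT arrays overlapped for all 3. In the authors' deposited table of processed values the separation held for miR-210-3p alone. None of the 3 differed from WT/WT or G93A/WT medium at an adjusted p under 0.05 in limma. Between G93A/WT and WT/WT medium the arrays of all 3 overlapped. The values below are log2 scaled signals, that is, signals divided by each array's own 75th percentile over the 423 miRNAs that every array detected and brought back to a common unit, with a floor at 0.60.

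On a different scale, that of the arrays as deposited, 450 to 563 miRNAs were detected per array, the total signal ran from 115265 to 203040 units, and both were highest on a G93A/WT array. The scale factors ran from 0.593 to 1.44, with the 3 G93A/WT arrays at 0.593 to 0.933 and the other 5 at 0.973 to 1.44. All arrays were on 1 slide. WT/WT 1 shared row 1 of the slide with the G93A/WT arrays, and WT/WT 2 shared row 2 with the G93A/G93A arrays. Among 6 muscle miRNAs, 4 (miR-1a-3p, miR-133a-3p, miR-133b-3p and miR-206-3p) were detected on every array, miR-499-5p on 1 and miR-208b-3p on none.

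miR-21a-5p gave a log2 scaled signal of 9.52 and 9.21 on the WT/WT arrays, 9.61, 9.35 and 9.51 on the G93A/WT arrays and 8.46, 9.05 and 9.08 on the G93A/G93A arrays. G93A/G93A 1 was the lowest of all, and the highest G93A/G93A array lay 0.13 below the lowest WT/WT array and 0.27 below the lowest G93A/WT array. WT/WT averaged 9.37 ± 0.22 (SD, n = 2), G93A/WT 9.49 ± 0.13 (SD, n = 3) and G93A/G93A 8.86 ± 0.35 (SD, n = 3). In deposited signal units the WT/WT arrays gave 512 and 523, the G93A/WT arrays 841, 1099 and 963, and the G93A/G93A arrays 305, 405 and 556. Before scaling, therefore, the G93A/G93A arrays spanned the WT/WT arrays, while all G93A/WT arrays were brighter than the rest. The error deposited with each signal was 8.34% to 10.5% of it. The other arm, miR-21a-3p, was undetected on every array.

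miR-210-3p gave a log2 scaled signal of 5.39 and 5.68 on the WT/WT arrays, 5.47, 5.84 and 5.60 on the G93A/WT arrays and 5.02, 5.11 and 5.22 on the G93A/G93A arrays. The G93A/G93A arrays lay close together and below all others, by a gap of 0.17 to the lowest WT/WT array and 0.25 to the lowest G93A/WT array. The group means were 5.54 ± 0.21 (SD, n = 2), 5.64 ± 0.19 (SD, n = 3) and 5.12 ± 0.10 (SD, n = 3) in the order WT/WT, G93A/WT and G93A/G93A. In deposited signal units these arrays gave 29.1 and 45.4 for WT/WT, 47.6, 96.8 and 64.1 for G93A/WT and 28.0, 26.4 and 38.3 for G93A/G93A, so here too G93A/G93A and WT/WT overlapped before scaling. The deposited error was 7.60% to 9.83% of the signal. miR-210-5p, the other arm of the hairpin, was undetected on every array.

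miR-34a-5p was a dim miRNA, and its log2 scaled signal was 4.06 and 4.04 on the WT/WT arrays, 3.90, 4.08 and 4.06 on the G93A/WT arrays and 2.89, 3.08 and 3.79 on the G93A/G93A arrays. The 2 WT/WT arrays lay close together under this scaling, but at 16.1 and 18.4 units in the authors' values. Their deposited error was 13.1% and 12.5% of the signal. G93A/G93A 1 and 2 were well below the rest, and G93A/G93A 3 was only 0.11 below the lowest G93A/WT array and 0.25 below the lowest WT/WT array. The group means were 4.05 ± 0.015 (SD, n = 2), 4.02 ± 0.10 (SD, n = 3) and 3.26 ± 0.47 (SD, n = 3) in the same order. In deposited signal units the WT/WT arrays gave 11.6 and 14.6, the G93A/WT arrays 16.05, 28.6 and 22.1, and the G93A/G93A arrays 6.43, 6.47 and 14.2. Its deposited error was 9.19% to 18.5% of the signal and was largest on G93A/G93A 1 (18.1%) and G93A/G93A 2 (18.5%). miR-34a-3p was undetected on every array.

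miR-34c-5p was detected on G93A/WT 2 and G93A/WT 3 alone, at 4.39 and 3.28 deposited units (log2 scaled 1.38 and 1.31), which is 3.98 and 3.11 times its own error. These were the 2 arrays with the smallest scale factors and the most detected miRNAs, and the part of array brightness in this detection was not tested. It entered the fit only through these 2 arrays, and with G93A/WT 1 undetected too the group has no measured mean, so no fold, p or count of calls is given for it. miR-34b-5p, from the same transcript, and the arms miR-34b-3p and miR-34c-3p were undetected on every array. So were miR-449a-5p, miR-449c-5p, miR-449b and miR-590-5p, a relative of miR-21. In all, 0 of 11 other arms, copies and relatives of the members were detected on any array.

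**Figure D1:**
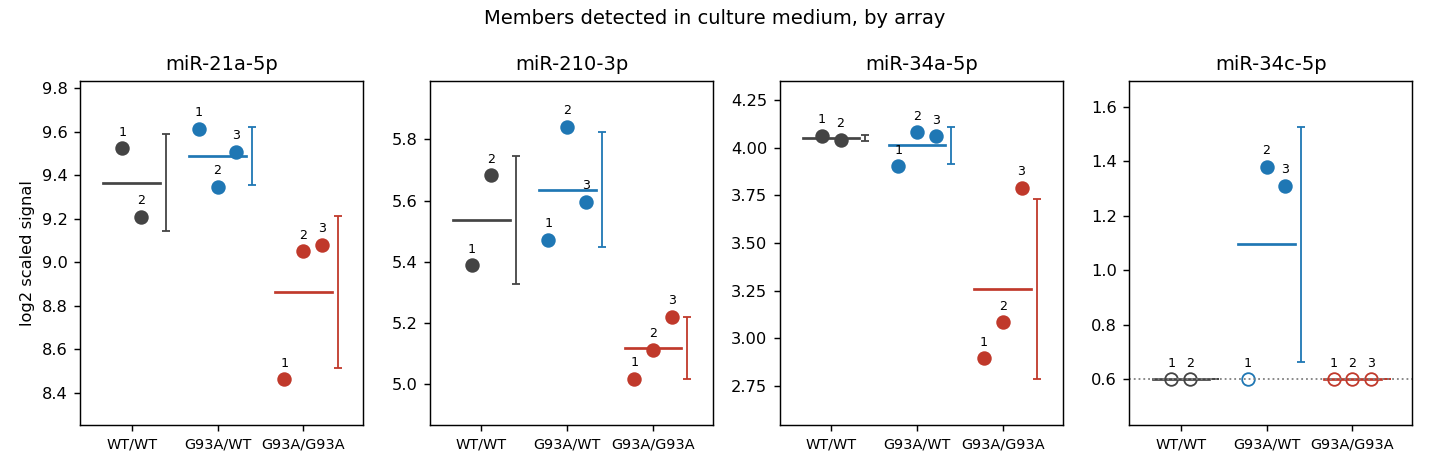
Log2 scaled signal (y axis, its range set for each panel) of the 4 members detected on any array, by group (x axis). Each point is 1 array with its replicate number, open where the miRNA was undetected and drawn at the floor (dotted line), horizontal lines are group means and bars beside them 1 SD. The G93A/G93A points lie lowest for miR-21a-5p, miR-210-3p and miR-34a-5p, and miR-34c-5p leaves the floor on G93A/WT 2 and 3 only.

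The first comparison set medium of purely mutant cultures against that of purely wild-type ones. In G93A/G93A against WT/WT medium the log2 difference was −0.80 ± 0.25 for miR-34a-5p (SE, adjusted p = 0.106), a ratio of 0.576 with a 95% confidence interval of 0.381 to 0.869. For miR-21a-5p it was −0.50 ± 0.22 (SE, adjusted p = 0.194), a ratio of 0.706 (0.495 to 1.01). For miR-210-3p it was −0.42 ± 0.15 (SE, adjusted p = 0.140), a ratio of 0.748 (0.582 to 0.962). The p-values are those of limma, adjusted over all 538 tested miRNAs, so 0 of the 3 members detected on all arrays passed, against 8.55% of all tested miRNAs. At an unadjusted p under 0.05 there were 2 of 3, miR-210-3p and miR-34a-5p, against 26.6% of all. The median over these 3 members was −0.50 and over all tested miRNAs −0.0061. All members are numbered below 1000 in the miRNA register, and the 290 tested miRNAs numbered so had a median of −0.11. miR-34a-5p passed without G93A/G93A 3 (−1.06, adjusted p = 0.0117, in limma), and the difference of miR-21a-5p was −0.30 without G93A/G93A 1. For miR-210-3p it was −0.27 without WT/WT 2. Within slide row 2, where WT/WT 2 is the single control, and likewise with the row as a block, the differences were −0.34 for miR-21a-5p, −0.57 for miR-210-3p and −0.79 for miR-34a-5p, and none passed.

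The second comparison asked what changed when mutant cells shared medium with wild-type ones. In G93A/WT against WT/WT medium the differences were small beside their errors, at 0.12 ± 0.22 for miR-21a-5p (SE, adjusted p = 0.743), 0.10 ± 0.15 for miR-210-3p (SE, adjusted p = 0.696) and −0.039 ± 0.25 for miR-34a-5p (SE, adjusted p = 0.925). The 95% confidence intervals of the ratios ran from 0.764 to 1.55, from 0.834 to 1.38 and from 0.645 to 1.47 in that order, so smaller differences in either direction were not detectable with these arrays. In limma 0 of these 3 members passed and 0 had an unadjusted p under 0.05, against 3.9% and 24.5% of all tested miRNAs. None of the 3 had its G93A/WT arrays all above the WT/WT arrays (19.3% of all tested) or all below them (26%). The direction was not stable: of 24 processing alternatives the sign turned in 3 for miR-21a-5p, 3 for miR-210-3p and 2 for miR-34a-5p. Within slide row 1, with WT/WT 1 as the single control, it turned for miR-21a-5p alone (−0.034), with miR-210-3p at 0.25 and miR-34a-5p at −0.049. Without scaling the differences were 0.89, 0.87 and 0.73, but there the median over all tested miRNAs was 0.79.

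**Figure D2:**
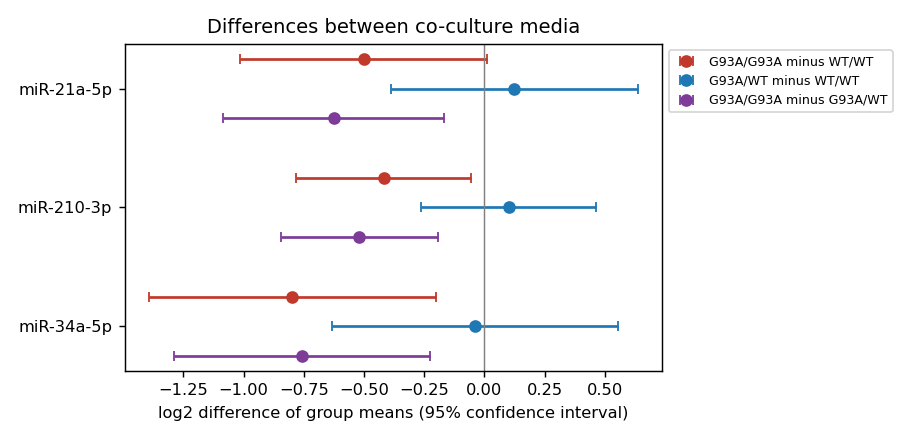
Log2 difference between group means (x axis) for the 3 members detected on all arrays (y axis). Points are limma estimates, bars their 95% confidence intervals and colours the comparisons. In G93A/WT minus WT/WT all 3 intervals cross 0, as does that of miR-21a-5p in G93A/G93A minus WT/WT (−1.01 to 0.011). The estimates of both comparisons with G93A/G93A lie between −0.80 and −0.42, and none passed an adjusted p of 0.05.

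In G93A/G93A against G93A/WT medium, which compares 2 mutant bottom chambers with mutant or wild-type cells in the insert, miR-34a-5p differed by −0.76 ± 0.22 (SE, adjusted p = 0.0758), miR-21a-5p by −0.63 ± 0.19 (SE, adjusted p = 0.0830) and miR-210-3p by −0.52 ± 0.14 (SE, adjusted p = 0.0584). The ratios were 0.591 (0.409 to 0.855), 0.648 (0.472 to 0.890) and 0.698 (0.557 to 0.874). In limma 0 of these 3 members passed, against 10.6% of all tested miRNAs, and 3 of 3 had an unadjusted p under 0.05, against 32.2% of all. The median was −0.63 over the 3 members and −0.095 over all tested miRNAs. miR-210-3p sat at the edge of the threshold: it passed in limma without G93A/WT 1 (adjusted p = 0.0457), without G93A/G93A 3 (adjusted p = 0.0482), and when the test was limited to miRNAs detected on all 8 arrays (adjusted p = 0.0489). miR-34a-5p passed without G93A/G93A 3 (−1.03, adjusted p = 0.00324). These 2 groups never shared a slide row. With the row as a block, linked through 1 WT/WT array in each row, the differences were −0.31 for miR-21a-5p, −0.81 for miR-210-3p and −0.74 for miR-34a-5p, and limma called 0 of all 538 miRNAs, with 73 below an unadjusted p of 0.05. Against the midpoint of the pure groups, G93A/WT medium differed by 0.37 for miR-21a-5p (adjusted p = 0.204), 0.31 for miR-210-3p (adjusted p = 0.155) and 0.36 for miR-34a-5p (adjusted p = 0.276). There 0 of these 3 members passed in limma, against 7.43% of all, and 1, miR-210-3p, had an unadjusted p under 0.05, against 28.8%.

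In the order of group means, G93A/G93A was thus lowest for all 3 members. G93A/WT came first for miR-21a-5p and miR-210-3p and WT/WT first for miR-34a-5p, and these upper neighbours overlapped. The 3 comparisons share arrays and are not independent. All 3 had their G93A/G93A arrays below the WT/WT arrays (22.7% of all tested miRNAs), below the G93A/WT arrays (19.1%) and below both (8.18%, or 8.04% of the 423 miRNAs that every array detected). In exact permutation tests over arrays (2-sided) of G93A/G93A against WT/WT, p was 0.2 for miR-21a-5p and miR-34a-5p and 0.1 for miR-210-3p. Against G93A/WT it was 0.1 for each, and 0.1 is the smallest p these designs allow. The separation depended in part on how arrays were put on one scale. With median or quantile scaling it held for all 3. The share of all tested miRNAs separated in this way was not counted under median or quantile scaling. Whether the separation under them is particular to the members therefore cannot be told. In the deposited signals without scaling, all 3, miR-34a-5p included, lay below G93A/WT on every G93A/G93A array but overlapped WT/WT. Without scaling the median difference over all tested miRNAs from G93A/WT was itself −0.68, so the position below G93A/WT is not particular to the members. In the authors' deposited table of processed values, G93A/G93A reached 564 units for miR-21a-5p, above the lower WT/WT array at 560, and 14.6 for miR-34a-5p, above the lowest G93A/WT array at 14.5.

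**Figure D3:**
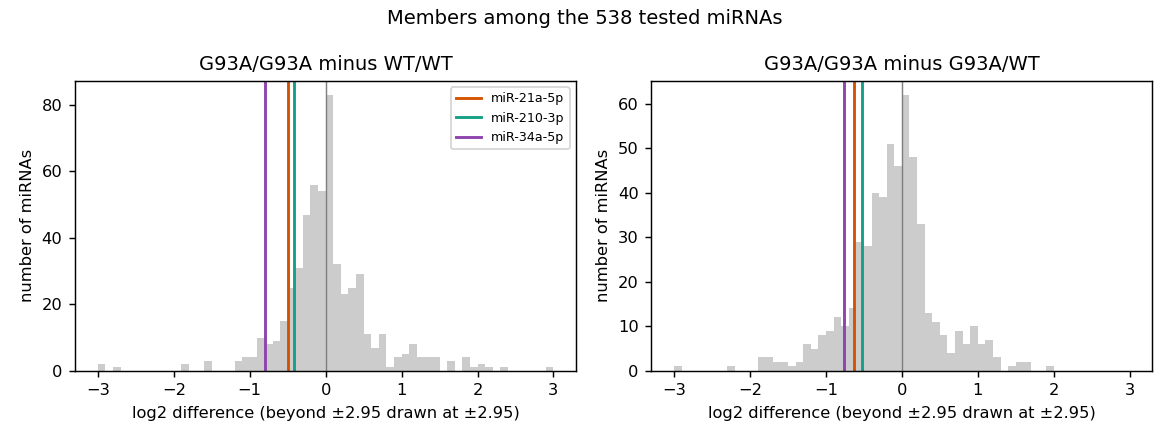
Number of miRNAs (y axis) by log2 difference (x axis) for the 538 tested miRNAs (grey bars), in G93A/G93A minus WT/WT (left) and G93A/G93A minus G93A/WT (right). Coloured lines mark the members detected on all arrays, which lie in the lower flank: in the left panel 5.39% of all tested miRNAs had a more negative difference than miR-34a-5p, 11.2% than miR-21a-5p and 15.2% than miR-210-3p.

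The profiles of the 3 members over the arrays were alike in part. Within G93A/G93A, array 1 was lowest and array 3 highest for each, whereas in WT/WT array 1 was the higher for miR-21a-5p and array 2 for miR-210-3p. The root-mean-square difference between centred log2 profiles over the 8 arrays was 0.26 for miR-21a-5p and miR-210-3p, 0.25 for miR-21a-5p and miR-34a-5p and 0.26 for miR-210-3p and miR-34a-5p. Counted from the first-named of each pair, the second ranked only 63, 48 and 97 in nearness among 422 other miRNAs. By this measure the profile most like that of miR-210-3p was miR-99a-5p (0.070, with means of 5.59, 5.68 and 5.12 in WT/WT, G93A/WT and G93A/G93A), followed by miR-322-5p (0.11) and miR-24-3p (0.13). The nearest to miR-21a-5p were miR-5103 (0.13), miR-15b-5p (0.13) and miR-378d (0.13), and the nearest to miR-34a-5p were miR-425-5p (0.13), miR-10a-5p (0.15) and miR-369-5p (0.17). The median over the 420 other miRNAs was 0.34 to 0.48, depending on the member.

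Other miRNAs of the same stress pathways were counted from lists. Of 14 other hypoxia-linked miRNAs, all tested, 4 were lower in G93A/G93A medium than in that of WT/WT (4.83% of all tested miRNAs were), none was higher and 10 did not pass, with 13 below zero and a median of −0.37. A fold given as "at least" sets the mean of the brighter group against the mean, over the arrays of the other, of each array's lowest detected signal. The 4 were miR-181a-5p, detected on no G93A/G93A array and at least 3.29-fold lower (adjusted p = 0.000891, which may be too small where arrays at the floor add no spread), miR-199a-5p, which targets HIF-1α (−0.85 ± 0.17, SE, adjusted p = 0.0291), miR-23b-3p (−0.76 ± 0.14, SE, adjusted p = 0.0234) and miR-23a-3p (−0.53 ± 0.12, SE, adjusted p = 0.0437). miR-24-3p, encoded beside miR-23 and miR-27, lay at −0.37 and did not pass (adjusted p = 0.108). Against G93A/WT, 2 were lower (5.2% of all tested), miR-26a-5p (−0.62 ± 0.14, SE, adjusted p = 0.0285) and miR-181a-5p (at least 2.31-fold, adjusted p = 0.000930), and 14 of 14 lay below zero, where the median was −0.095 over all tested miRNAs and −0.20 over those numbered below 1000. Between G93A/WT and WT/WT limma called none of the 14, with 4 below an unadjusted p of 0.05 (24.5% of all tested were).

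Of 12 other p53-linked miRNAs, 11 were on the array and 6 were tested. miR-125b-5p, which restrains p53 itself, was lower in G93A/G93A medium than in that of WT/WT (−0.79 ± 0.11, SE, adjusted p = 0.00929), and the other 5 did not pass (median of the list −0.23). miR-22-3p, a p53-induced miRNA, lay at −0.26 (adjusted p = 0.400). Against G93A/WT limma called none of the 6, with 4 below an unadjusted p of 0.05 (32.2% of all tested were), and 6 of 6 lay below zero, against the same medians of −0.095 and −0.20. Between G93A/WT and WT/WT it called none, with 2 below an unadjusted p of 0.05 (24.5% of all tested). The p53-induced miR-192-5p, miR-194-5p and miR-215-5p were undetected on every array.

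Of 14 other miRNAs linked to oxidative stress, 9 were tested. The miR-200 members miR-429-3p (at least 6.23-fold, adjusted p = 0.00680), miR-200b-3p (at least 3.26-fold, adjusted p = 0.0143) and miR-200c-3p (at least 2.67-fold, adjusted p = 0.00306), which are raised by hydrogen peroxide in other cells, were lower in G93A/G93A medium than in that of WT/WT and undetected on each G93A/G93A array. One of them, miR-200c-3p, is counted again below as a marker of stratified epithelium. miR-23b-3p, also on the hypoxia list, was the fourth of 9 (the share over all tested was 4.83%), and 5 missed the threshold, including miR-365-3p (−0.23, adjusted p = 0.340) and miR-335-5p (0.032, adjusted p = 0.961). miR-28a-5p, which targets the antioxidant regulator NRF2, was detected on the 3 G93A/WT arrays alone, at least 1.78-fold above WT/WT and at least 1.86-fold above G93A/G93A. It entered the fit only through that group, whose arrays had the smallest scale factors (0.593 to 0.933), and the part of array brightness in its detection was not tested. Its calls in limma are therefore given only as counts: it was the 1 of 9 called higher in G93A/WT against WT/WT (3.16% of all tested were), a comparison in which 0 of the 423 miRNAs detected on all arrays passed and 103 had an unadjusted p below 0.05. Against G93A/WT, with miR-28a-5p left out, the 3 miR-200 members were called lower in G93A/G93A (5.2% of all tested were) and 5 did not pass.

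**Figure D4:**
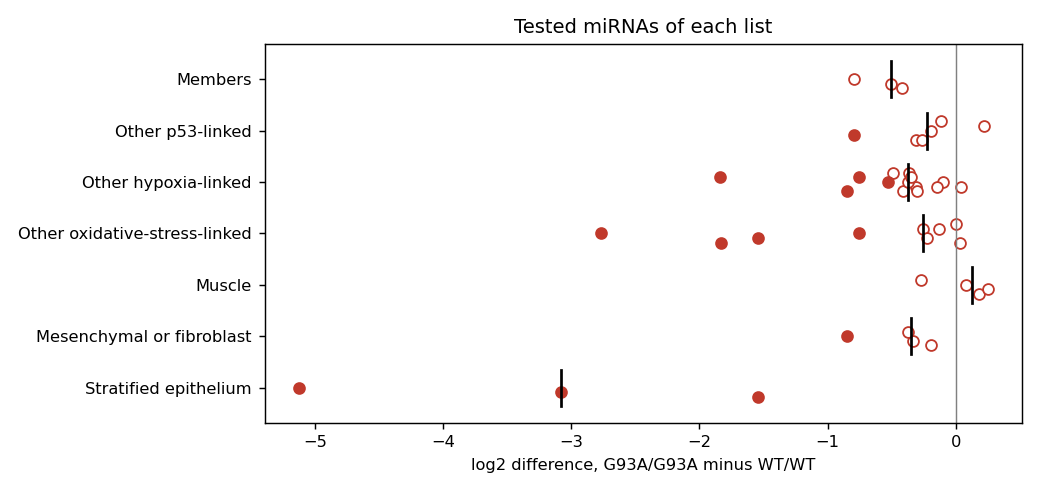
Log2 difference of G93A/G93A minus WT/WT (x axis) for the members detected on all arrays and the tested miRNAs of 6 lists (y axis). Points are miRNAs, filled where the adjusted p was under 0.05, and black bars list medians; the members (median −0.50) are all open, and the lists with filled points below −1 hold miRNAs undetected on G93A/G93A arrays, drawn at the floor, apart from miR-205-5p.

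Marker lists of other cells were read on the same arrays, and of those with over 1 tested miRNA one, stratified epithelium, passed in all its miRNAs in G93A/G93A against WT/WT. The 5 mesenchymal or fibroblast miRNAs, of cells that also make miR-21, had a summed scaled signal of 475 to 517 in WT/WT, 415 to 553 in G93A/WT and 343 to 430 in G93A/G93A. Of these 5, 4 were tested and miR-145a-5p was undetected on every array. All 4 lay below zero in G93A/G93A against WT/WT, with a median of −0.35 beside −0.11 over all tested miRNAs numbered below 1000. Of the 4, miR-199a-5p, also on the hypoxia list, passed (4.83% of all tested were called lower) and 3 did not pass. The 3 markers of stratified epithelium were miR-205-5p, miR-203-3p and miR-200c-3p, which is also on the oxidative-stress list. They summed to 123 to 148, 53.7 to 73.0 and 0 to 5.36 in the same order. Each of the 3 passed as lower in G93A/G93A against WT/WT, against 4.83% of all tested miRNAs. The part of these cell types in the members' levels was not tested. Of the 4 leukocyte markers miR-142a-3p, miR-142a-5p and miR-150-5p were undetected on every array, and miR-223-3p was higher in G93A/G93A medium than in that of WT/WT (0.52 ± 0.12, SE, adjusted p = 0.0433). The 4 ciliated-cell markers, which include miR-34b-5p and miR-34c-5p, were undetected in WT/WT and G93A/G93A. The muscle miRNAs summed to 4522 to 5194 in WT/WT, 4341 to 5258 in G93A/WT and 4094 to 5063 in G93A/G93A. In no pairwise comparison did limma call any of the 4 tested, with 0 below an unadjusted p of 0.05. Over all tested miRNAs, 8.55% were called in G93A/G93A against WT/WT, 3.9% in G93A/WT against WT/WT and 10.6% in G93A/G93A against G93A/WT. The shares below an unadjusted p of 0.05 were 26.6%, 24.5% and 32.2%. With so few miRNAs, 0 calls do not show that they were unchanged. The 4 erythroid and serum markers summed to 1015 to 1085, 1260 to 1422 and 927 to 1386, with miR-144-3p undetected throughout. None of the 3 tested passed in limma, with 1, 2 and 0 at an unadjusted p under 0.05 in the 3 comparisons, beside the same shares of all tested miRNAs. Of 2 endothelial markers, miR-126a-3p lay at −0.23 in G93A/G93A against WT/WT (adjusted p = 0.346) with miR-126a-5p undetected, and of 3 neural ones miR-128-3p lay at 0.064 (adjusted p = 0.862) with miR-124-3p and miR-9-5p undetected.

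**Figure D5:**
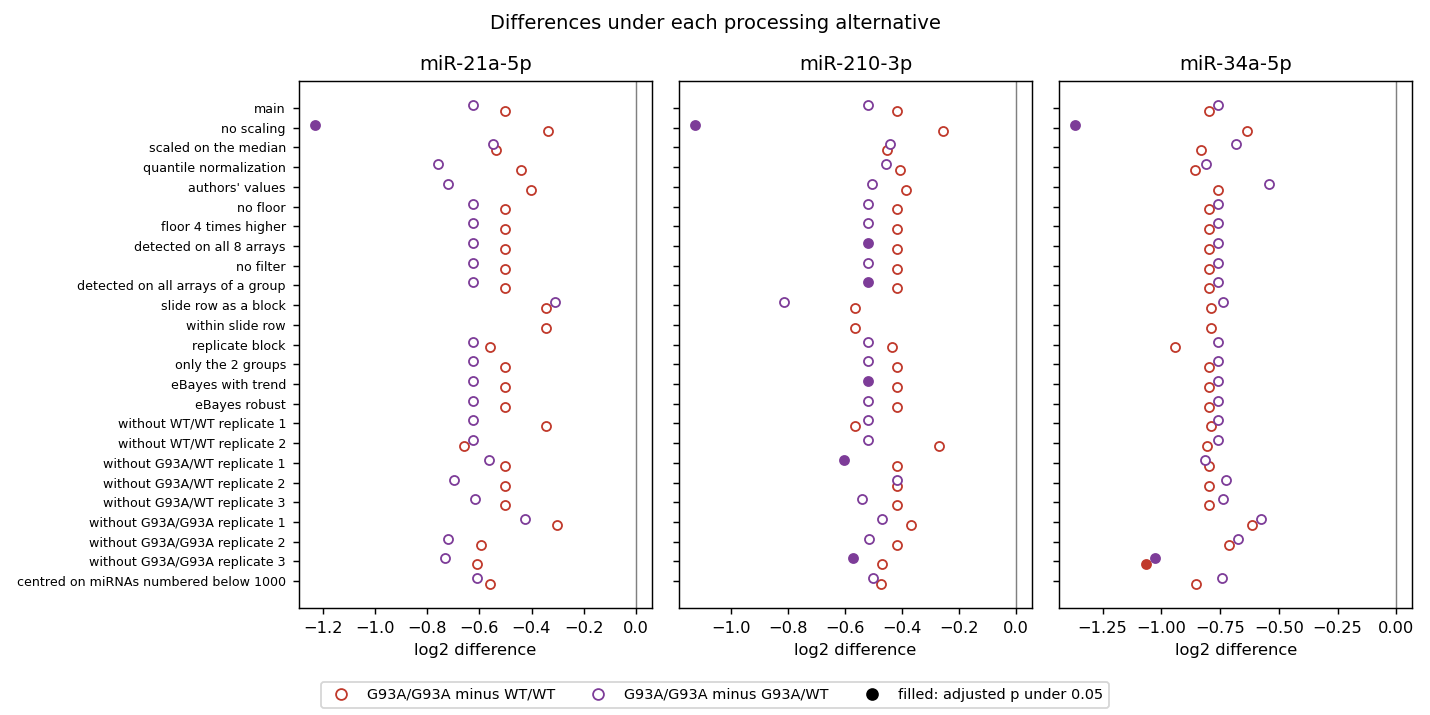
Log2 difference (x axis) of the 3 members detected on all arrays under each processing alternative (y axis), for G93A/G93A minus WT/WT and G93A/G93A minus G93A/WT. Points are estimates, filled where the adjusted p was under 0.05; every estimate lies below 0, between −1.37 and −0.26, and few are filled.

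Over the processing alternatives both comparisons with G93A/G93A kept their sign for these 3 members. Against WT/WT the difference ran from −0.66 to −0.30 for miR-21a-5p, from −0.57 to −0.26 for miR-210-3p and from −1.06 to −0.62 for miR-34a-5p over 24 alternatives, with 0, 0 and 1 passing. Against G93A/WT it ran from −1.23 to −0.31, from −1.13 to −0.42 and from −1.37 to −0.54 over 23, with 1, 6 and 2 passing. For each of the 3, one of these passes was without scaling, where the median over all tested miRNAs was itself −0.68, and relative to it miR-21a-5p lay at −0.55, miR-210-3p at −0.45 and miR-34a-5p at −0.69.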

How the data were processed

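Per the labels' protocols, small RNA was extracted from 600 µl of medium and 150 ng was labelled with Cy3. The deposited array files give, per the file headers, a signal intensity per miRNA on a linear scale, its error and a detected flag; undetected miRNAs are listed at 0.1. The authors' deposited value table, an intensity on a linear scale of unstated normalization, held 492 mouse miRNAs and served as an alternative. Each array was scaled to the 75th percentile over the 423 miRNAs detected on all 8 arrays, a floor was set at 1.52 units (the median over arrays of the lowest detected scaled signal), and log2 was taken. The 538 miRNAs detected on at least 2 arrays were tested with limma 3.58.1 in R 4.3.3 (lmFit, eBayes, 3 groups sharing 1 spread) with Benjamini-Hochberg adjustment and a threshold of 0.05. The limma fit alone was tested on simulated data with normal noise, which did not exercise the scaling, the floor or the filter. The number of arrays limits the precision, and the p-values measure the spread between these samples. Members and lists were chosen with earlier results of these data known. Named were all members, their other arms and seed relatives, list members that passed or had the highest signals, and the 3 nearest profiles. Alternatives covered scaling, floor, filter, slide row, replicate number, fit and leaving out each array. Centring on miRNAs numbered below 1000 was an alternative chosen after seeing the data.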

Additional observations from a re-analysis of the deposited data

How the results depend on the processing

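Over the alternatives, 0 members passed in each comparison in most settings. The exceptions in G93A/G93A against G93A/WT were 3 passing without scaling, 1 with either filter on detection (all 8 arrays, or all arrays of a group) and 1 with a trended eBayes. Against the midpoint the 3 members detected on all arrays passed without scaling, where the median over all tested miRNAs was itself 0.73. miR-34c-5p is left out of that count, since it entered the fit only through G93A/WT arrays. Leaving out 1 array gave 0 to 1 of these 3 members in G93A/G93A against WT/WT and against the midpoint. It gave 0 in G93A/WT against WT/WT and 0 to 2 in G93A/G93A against G93A/WT. These ranges also leave out miR-34c-5p, since leaving out G93A/WT 1 keeps just the G93A/WT arrays that detected it. The sign turned only in G93A/WT against WT/WT, for miR-34a-5p without scaling (0.73), miR-210-3p with median scaling (−0.011) and miR-21a-5p with the slide row as a block or within the row (−0.034); leaving out 1 array gave −0.034 to 0.28 for miR-21a-5p, −0.047 to 0.25 for miR-210-3p and −0.072 to 0.017 for miR-34a-5p. The cause was not tested. Where a WT/WT array is left out, the other is assumed to vary like the other groups.

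The count over all tested miRNAs was 46 (20 higher, 26 lower; 7 when the slide row was a block, 11 with no filter and 7 to 57 with 1 array left out) in G93A/G93A against WT/WT, 21 (0 among miRNAs detected on all arrays, with 103 at an unadjusted p under 0.05 in limma, 130 without scaling, 7 to 61) in G93A/WT against WT/WT and 57 (0 with the row block, 149 without scaling, 38 to 122) in G93A/G93A against G93A/WT. The split into higher and lower moved with the scaling: 5 and 28 with median scaling in the first comparison, 130 and 0 without scaling against 17 and 4 in the second, 1 and 148 without scaling against 29 and 28 in the third. Labels give groups the same replicate numbers, and 2 of 7 same-numbered pairs of arrays had deviations from their group means correlated above 0.1. The deviations of the 2 WT/WT arrays mirror each other, so the correlations are not independent and cannot show whether the numbers pair the cultures. With the replicate block the counts were 10, 8 and 37, and 0 members passed in each. Scaling on the 75th percentile of all miRNAs was not run, since it fell on the undetected value on 3 arrays. The authors' values do not hold miR-34b-5p and miR-34c-5p, and with the floor 4 times higher miR-34c-5p has no value.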
